A study of Mus musculus with 16 samples.

Results

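Class B peptide receptors are cell-surface receptors for peptide hormones of the glucagon and secretin family. Here 6 of them were examined in pancreatic islets of Insm1 mutant and control mice. Insm1 encodes a zinc finger protein that regulates transcription in endocrine cells. The 6 were Glp1r, Gipr, Gcgr, Adcyap1r1, Vipr1 and Vipr2, chosen by name from the genes that the array annotation assigns to probe sets. They were 6 of 18193 genes tested, and 9 of the 34945 probe sets that name 1 gene belonged to them. Where a receptor had several probe sets, the one with the highest mean signal over all arrays stood for the gene, and the others are given as well.

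These receptors couple mainly to the stimulatory G protein, which activates adenylyl cyclase and raises cyclic AMP. In beta cells cyclic AMP amplifies insulin release when glucose is high, and this is how the gut hormones GLP-1 and GIP, the incretins, act on the islet. Pancreatic nerves release the related peptides PACAP and VIP, and glucagon from alpha cells reaches beta cells through the same family of receptors.

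The arrays came from 16 islet preparations, 8 from mutant and 8 from control mice, all carrying RIPcreER, a tamoxifen-inducible recombinase driven by the rat insulin promoter. Mutants were Insm1flox/lacZ and controls Insm1flox/+, so the lacZ allele was present in every cell of the mutants and the floxed allele could be deleted in the beta cells of both groups. Tamoxifen (25 mg, released over 21 days) was given to both groups when the mice were 4 to 5 weeks old, and islets were isolated at 8 to 12 weeks. The background was mixed (CBA/J, C57BL/6 and 129/ola), and the series text calls the controls litter-matched. The comparison asks which transcripts differ once the remaining wild-type allele is replaced, not how they differ from intact Insm1. Each value is the log2 signal of a probe set on an Affymetrix Mouse430_2 array, and each difference is mutant minus control with n = 8 per group. That each array came from a separate animal follows from the series text, and the number of arrays limits the precision.

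Insm1 itself differed by -0.25 ± 0.11 (SE) and did not pass the test (limma, adjusted p = 0.182), with means of 11.26 ± 0.23 (SD) in control and 11.02 ± 0.22 in mutant islets. It was lower in 5 of 8 same-numbered pairs, and without pairs 1 to 3 the sign turned (0.04, adjusted p = 0.873). The sources used here do not give the position of its probes relative to the deleted part, and this signal does not check the labels. Of 8 measured beta-cell markers 6 were called lower in the mutant (limma, adjusted p under 0.05), where 4.66% of all genes were. The mean of the 8 per array ran from 13.14 to 13.29 in controls and from 12.55 to 12.87 in mutants. Ins2 and Iapp lay near the top of the scale and did not pass the test. Of 5 alpha-cell markers 2 were called higher and 0 lower, where 4.10% and 4.66% of all genes were. With replicate numbers as a block 3 were higher and 0 lower, against 7.88% and 9.71% of all genes. The alpha-cell mean was higher in the mutant in 8 of 8 same-numbered pairs. It ran from 11.13 to 11.44 in controls and from 11.41 to 11.91 in mutants. Of 4 delta-cell markers 1 was called higher, and their mean was higher in 7 of 8 pairs, by 0.19 on average. The mean of 12 acinar markers was lower in the mutant in 8 of 8 same-numbered pairs. It ran from 11.77 to 13.82 in controls and from 8.72 to 13.38 in mutants. Of the 12, 1 was called lower (4.66% of all genes), and 12 with the replicate block (9.71% of all genes). The mean of 11 immune-cell markers ran from 7.44 to 8.90 in controls and from 7.42 to 9.84 in mutants, with its 2 highest values on mutant replicates 1 and 3 (9.84 and 9.43). Of 9 stromal markers Dcn and Col1a2 were higher (1.29 and 0.60) and Acta2 lower (-0.98), and their mean was higher in the mutant in 7 of 8 pairs, by 0.26 on average. Of 4 duct markers Krt19 was lower (-0.95), and their mean was lower in 7 of 8 pairs, by -0.32. The pancreatic polypeptide gene, the 7 endothelial and the 2 glial markers included no called gene (1, 0 and 0 with the block). The pancreatic polypeptide gene was higher in the mutant in 7 of 8 pairs, by 0.21 on average. The part of these cell types in the receptor results was not tested beyond the fits given below. In whole islets, fewer cells of a type and less RNA per cell cannot be told apart.

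Both incretin receptors were lower in mutant islets, and the other 4 receptors did not pass the test. Glp1r fell 2.11-fold and Gipr 1.43-fold, each measured by 1 probe set, so no other probe set could be compared. Thus 2 of the 6 receptors were called lower and 0 higher at an adjusted p under 0.05, where 4.66% of all 18193 genes were called lower and 8.76% in either direction. The median difference of the 6 was -0.17, against -0.01 over all genes. Array medians lay between 6.29 and 6.35. Signals near or below them may be compressed by background, so a difference there may understate a change in RNA, which was not tested.

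Glp1r encodes the receptor for GLP-1 and is a target of drugs for type 2 diabetes. Its signal on the 8 control arrays had a lowest value of 7.21, a median of 8.08 and a highest value of 8.19. On the 8 mutant arrays the lowest was 6.41, the median 6.82 and the highest 7.21. The groups overlapped only in that control replicate 2, the lowest control, was level with mutant replicate 4, the highest mutant, and the 7 other control arrays lay at or above 7.71. The means were 7.92 ± 0.33 (SD) and 6.84 ± 0.29, a difference of -1.08 ± 0.15 (SE) with a 95% interval of -1.39 to -0.77 (limma, adjusted p = 0.000125 over all genes). On the linear scale this is a signal 2.11-fold lower, with an interval from 1.71-fold to 2.61-fold. Within same-numbered pairs the mutant was lower in 8 of 8, by -0.80 in pair 2 to -1.47 in pair 6, whereas 7.21% of all genes were lower in every pair. Of all genes tested, 94 others had a difference at least as low. Without pairs 1 to 3, where mutant arrays had high immune-marker signal, the difference was -1.03 (adjusted p = 0.000639). The call ended with the replicate block plus the difference between the 3′ and 5′ control probe sets of Gapdh and beta-actin, a measure of RNA quality (-0.93, adjusted p = 0.0526) and with the block plus the acinar and immune means (-0.78, adjusted p = 0.621), fits that called 238 and 8 of all genes. The 3′ minus 5′ signal ran from 0.33 to 0.57 in controls and from 0.28 to 0.47 in mutants.

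Gipr encodes the receptor for GIP, the other incretin. Control arrays had a lowest value of 6.29, a median of 6.58 and a highest value of 7.21. Mutant arrays had a lowest value of 5.87, a median of 6.16 and a highest value of 6.27. The groups did not overlap, a pattern that 1.09% of all genes showed in this direction, but the gap between the lowest control (replicate 2) and the highest mutant (replicate 8) was narrow. The means were 6.65 ± 0.29 (SD) and 6.13 ± 0.13, a difference of -0.51 ± 0.11 (SE) with a 95% interval of -0.74 to -0.28 (limma, adjusted p = 0.00576). The mutant was lower in 8 of 8 pairs, by -0.18 in pair 4 to -0.95 in pair 8. The mutant signal lay below all array medians and the control signal not far above them. The fold of 1.43 is therefore that of a signal near the array medians, and its distance from background was not tested. Without pairs 1 to 3 the difference was as large (-0.52) but no longer called (adjusted p = 0.0514), and the call also ended with the replicate block plus the acinar mean (-0.49, adjusted p = 0.145) and in both fits that ended the call of Glp1r (-0.52 and -0.77, adjusted p = 0.294 and 0.588). Without pairs 1 to 3 only Glp1r of the 6 receptors was called, in a fit that called 2.46% of all genes lower and 2.09% higher.

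**Figure D1:**
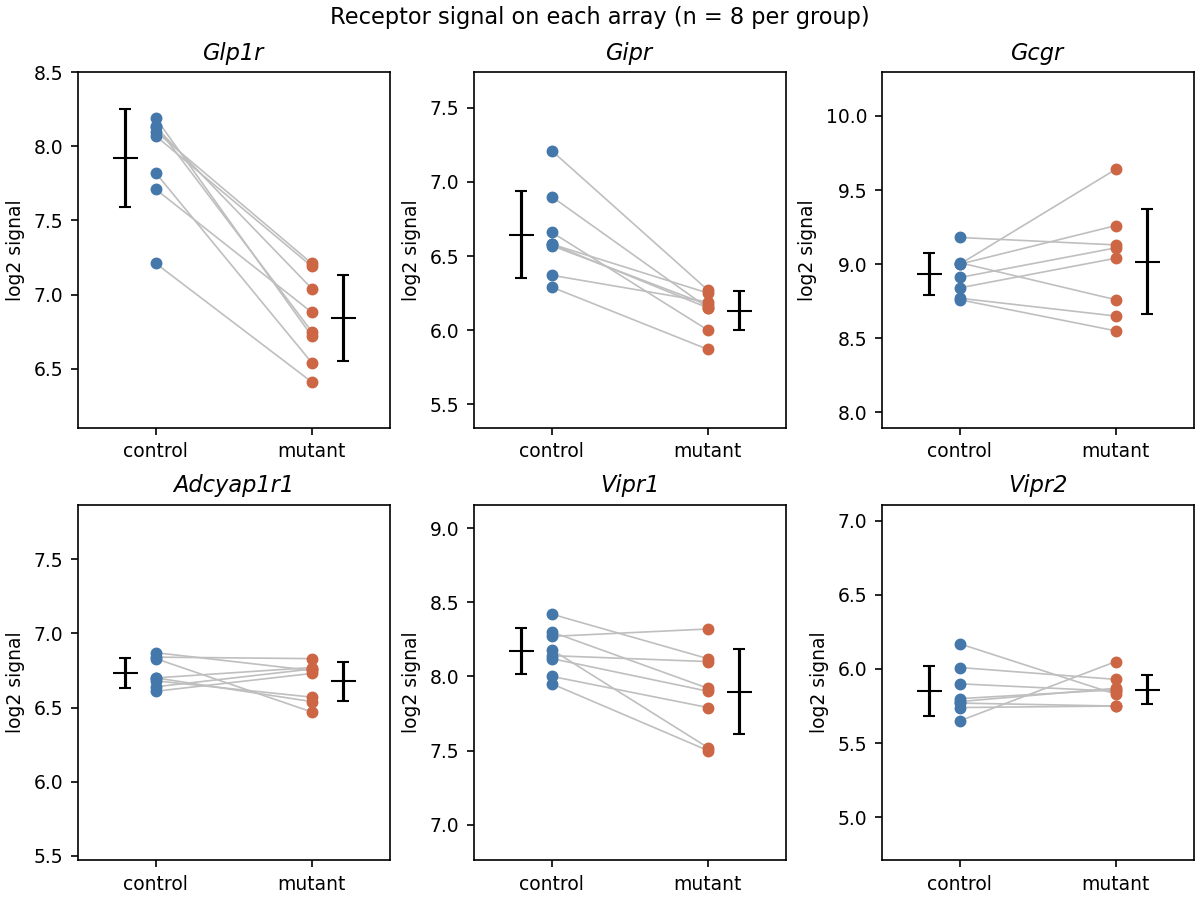
Log2 signal of the brightest probe set of each receptor on every array (vertical axes of equal span), with grey lines joining control and mutant arrays of the same replicate number and black bars showing mean ± SD (n = 8). All 8 lines fall for Glp1r and for Gipr, 7 of 8 fall for Vipr1, and the lines of Gcgr and Vipr2 run both ways, 4 down and 4 up.

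Of the 6 receptors, Vipr1 changed its call with the pairing of the arrays. Vipr1 encodes VPAC1, a receptor for both VIP and PACAP. Control arrays had a lowest value of 7.95, a median of 8.16 and a highest value of 8.42, and mutant arrays a lowest value of 7.50, a median of 7.91 and a highest value of 8.32. The groups overlapped widely, and the 2 lowest values were those of mutant replicates 3 and 1 (7.50 and 7.52), the arrays with the highest immune-marker means. The difference was -0.28 ± 0.11 (SE, 95% interval -0.51 to -0.04) and did not pass the test (limma, adjusted p = 0.144). With the replicate number as a block it was called lower (adjusted p = 0.0264), in a fit that called 17.6% of all genes in either direction and 9.71% of all genes lower. It was also called when the acinar mean was a term of the fit (-0.45, adjusted p = 0.0118). With the immune mean as a term the difference was -0.20 (adjusted p = 0.24), and without pairs 1 to 3 it was -0.18 (adjusted p = 0.374). The other Vipr1 probe set was dim, at 4.62 ± 0.22 (SD) in controls and 4.51 ± 0.13 in mutants, and its difference of -0.11 ± 0.09 (SE) did not pass either (limma over all probe sets, adjusted p = 0.555).

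Gcgr encodes the glucagon receptor. Its signal lay clearly above the array medians, from 8.76 to 9.18 with a median of 8.95 in controls and from 8.55 to 9.64 with a median of 9.07 in mutants. The groups overlapped over nearly the whole control range, and the mutant arrays were spread more widely (SD 0.36 against 0.14). The difference was 0.08 ± 0.13 (SE, limma, adjusted p = 0.778), with 4 pairs up and 4 down. The 95% interval, -0.18 to 0.35, excludes a difference as low as that measured for Glp1r or Gipr. The highest value, 9.64, was that of mutant replicate 1, and without that array the difference was -0.01 (adjusted p = 0.987).

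Adcyap1r1 encodes PAC1, which binds PACAP far more tightly than VIP. Its brightest probe set read 6.61 to 6.87 in controls (median 6.70) and 6.47 to 6.83 in mutants (median 6.74), so the groups lay on top of each other. The difference was -0.06 ± 0.06 (SE, 95% interval -0.19 to 0.08, limma, adjusted p = 0.69). The gene had 2 further probe sets. One read 6.23 ± 0.27 (SD) in controls and 6.30 ± 0.42 in mutants, with mutant replicates 5 and 4 highest (7.02 and 6.72), and the other was very dim, at 3.41 ± 0.12 and 3.45 ± 0.12. Their differences were 0.07 ± 0.16 and 0.04 ± 0.06 (SE), and neither passed (limma over all probe sets, adjusted p = 0.863 and 0.81), where 6.08% of all probe sets were called. The 3 probe sets therefore did not share a direction.

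Vipr2 encodes VPAC2, the other receptor shared by VIP and PACAP. Its only probe set lay below the array medians on all 16 arrays, from 5.65 to 6.17 (median 5.79) in controls and from 5.75 to 6.05 (median 5.86) in mutants. The difference was 0.01 ± 0.07 (SE, 95% interval -0.14 to 0.16, limma, adjusted p = 0.961), so no difference was detectable at this signal. No detection calls were used, and whether this probe set measured Vipr2 RNA above background was not tested.

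**Figure D2:**
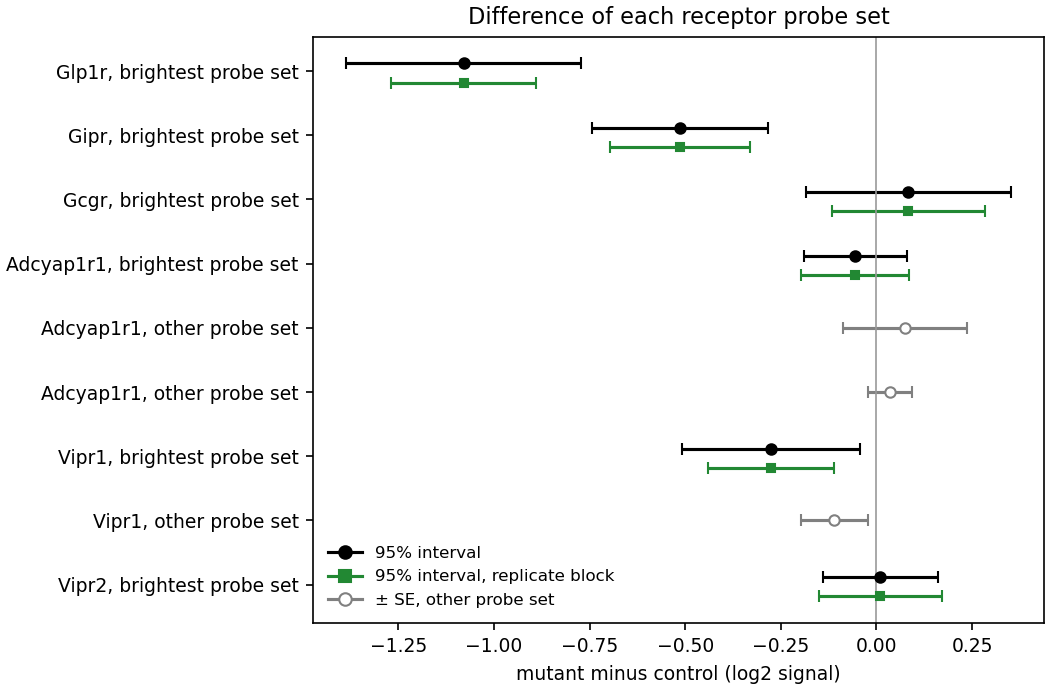
Difference, mutant minus control in log2 signal, of the 9 receptor probe sets: black circles and bars show the brightest probe set of each gene with its 95% interval, green squares the same with the replicate block, and open grey circles the other probe sets ± SE. The intervals of Glp1r, Gipr and Vipr1 lie below 0 in both fits, and the other 3 receptors' intervals include 0. Those of Vipr1 end closest to 0, at -0.04 and, with the block, -0.11. The intervals are not adjusted for the number of genes.

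Whether the receptors changed unequally was tested on the difference of 2 receptors' log2 signals within each array, for all 15 pairs of receptors, by exact permutation of the 16 genotype labels (two-sided, with Benjamini-Hochberg adjustment over the 15). The change of Glp1r was lower than that of each of the other 5 receptors. Against Gipr the gap was -0.56 ± 0.15 (SE, exact permutation test, adjusted p = 0.00566) and held in 7 of 8 pairs. Against Gcgr it was -1.16 ± 0.24, against Adcyap1r1 -1.02 ± 0.15, against Vipr1 -0.80 ± 0.14 and against Vipr2 -1.09 ± 0.20, each in 8 of 8 pairs (exact permutation tests, adjusted p = 0.0028 for all 4). The change of Gipr was lower than that of Gcgr (-0.60 ± 0.19, adjusted p = 0.0137), Adcyap1r1 (-0.46 ± 0.12, adjusted p = 0.0028) and Vipr2 (-0.52 ± 0.15, adjusted p = 0.00566) by the same exact test. It was not separated from that of Vipr1 (-0.24 ± 0.16, exact permutation test, adjusted p = 0.184). In all, 8 of the 15 pairs passed, 5 of them with Glp1r. The probe sets of Gipr, Adcyap1r1 and Vipr2 lay closer to or below the array medians than that of Glp1r, so these are gaps between signals and need not be gaps between RNA levels. Without pairs 1 to 3 the gap between Glp1r and Gipr was -0.51 and did not pass (exact permutation test, adjusted p = 0.0595). Without mutant replicate 5 the pairs Gcgr with Vipr1 and Vipr1 with Vipr2 passed as well (0.47 and -0.36, exact permutation test, adjusted p = 0.0249 and 0.042).

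**Figure D3:**
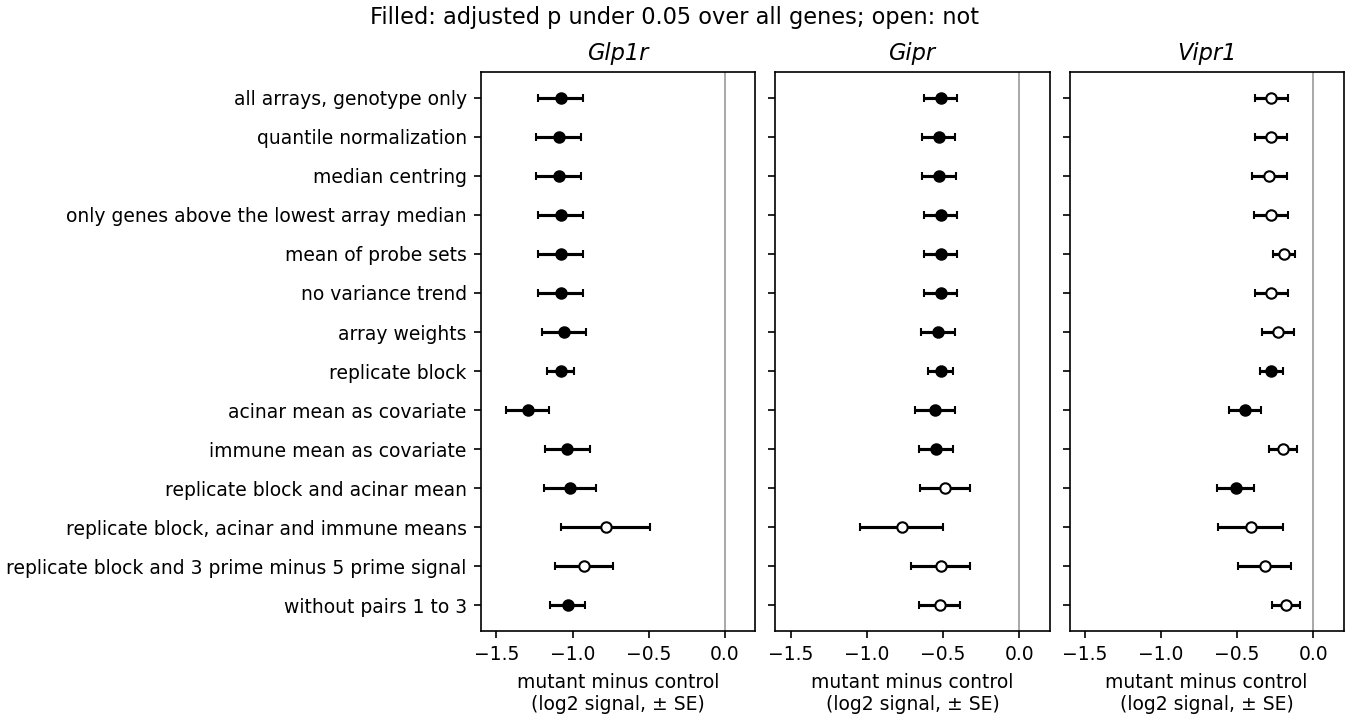
Difference ± SE of Glp1r, Gipr and Vipr1 (mutant minus control, log2 signal) in the fit with genotype as the only term and in 13 alternatives, filled where the adjusted p was under 0.05 over all genes. All values lie below 0. Glp1r is filled in all but 2 of the 13 alternatives, Gipr in all but 4, and Vipr1 in 3. Averaging probe sets reused the same values for Glp1r and Gipr, which have 1 probe set each.

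The sequence before the annotated start is shown for Glp1r, the receptor with the largest fall, and for Gcgr, which did not pass the test, so that their start regions can be set side by side. RefSeq promoters on GRCm38.p6 were matched for 5 of the 6 receptors, all but Gipr. The 250 bases upstream of each start were searched on both strands for 3 motifs that do not overlap one another: the E-box CAGNTG, of a form bound by basic helix-loop-helix factors such as NEUROD1, the forkhead core TGTTTAC, bound by FOXA2, and the cyclic AMP response element TGACGTCA. Capitals mark the single match. The Glp1r window is chr17:30901617-30901866 and the Gcgr window chr11:120530477-120530726, both on the plus strand.
Glp1r: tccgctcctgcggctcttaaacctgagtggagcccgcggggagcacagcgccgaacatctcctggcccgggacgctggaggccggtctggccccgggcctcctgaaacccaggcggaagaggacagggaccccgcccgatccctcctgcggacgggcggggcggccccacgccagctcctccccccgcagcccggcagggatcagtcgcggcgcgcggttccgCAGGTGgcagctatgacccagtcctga
Gcgr: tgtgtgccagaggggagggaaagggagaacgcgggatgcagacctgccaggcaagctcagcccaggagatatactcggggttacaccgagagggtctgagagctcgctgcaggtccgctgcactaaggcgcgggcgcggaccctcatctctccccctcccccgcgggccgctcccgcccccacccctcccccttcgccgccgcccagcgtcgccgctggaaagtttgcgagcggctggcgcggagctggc
Both windows are rich in G and C, at 73.2% for Glp1r and 70.4% for Gcgr, against a median of 52.4% over 32851 promoter windows of the same length. Glp1r held 1 E-box, which begins 27 bases before the start, and the other 4 windows held 0. An E-box of this form is found in 44.8% of all windows, the forkhead core in 3.17% and the response element in 1.55%, and the last 2 motifs were in none of the 5 receptor windows. A match is a description of the letters and not a binding site.

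The ligands of these receptors gave no difference past the test in islets. Gcg, the gene of glucagon and GLP-1, read 14.76 to 15.08 in controls and 14.93 to 15.17 in mutants, close to the highest value on the arrays, 15.39, so a change in it would be hard to see (0.07 ± 0.05 SE, limma, adjusted p = 0.465). Gip and Adcyap1, the genes of GIP and PACAP, lay below the array medians and differed by -0.01 ± 0.07 and 0.01 ± 0.12 (limma, adjusted p = 0.964 and 0.986). Vip ranged from 4.87 to 11.55 on control arrays (median 8.35) and from 5.58 to 11.94 on mutant arrays (median 9.58). The spread of Vip within each group was much larger than the difference between them (0.96 ± 0.89 SE, adjusted p = 0.606).

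Dpp4, the peptidase that cleaves and inactivates GLP-1 and GIP, was the 1 called gene of the 8 measured ligand, processing and breakdown genes, against 8.76% of all genes, and the median difference of the 8 was -0.01. It read 7.20 to 9.47 in controls (median 8.45) and 6.65 to 8.18 in mutants (median 7.13), and the mutant was lower in 8 of 8 pairs. The difference was -1.12 ± 0.30 (SE, limma, adjusted p = 0.0258). Leaving out control replicate 3 or 4 or mutant replicate 4 or 5 ended the call (adjusted p = 0.0526, 0.0519, 0.0519 and 0.0512), as did adding the acinar mean to the fit (-1.11, adjusted p = 0.0608) and averaging its 4 probe sets (-0.89, adjusted p = 0.0527). With the acinar mean and the replicate block together the difference was -0.35 (adjusted p = 0.692). With the 3′ minus 5′ signal in place of the acinar mean it was -1.75 (adjusted p = 0.144).

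Genes whose products act on receptors of this kind moved in both directions. Of 12 measured receptor partners 2 were higher and 2 lower, where 4.10% of all genes were called higher and 4.66% lower, and the median difference of the 12 was 0.02. Ramp1 encodes a small membrane protein that pairs with the calcitonin receptor-like receptor to form the CGRP receptor. It rose from 8.15 to 8.85 in controls to 9.45 to 10.34 in mutants, so that the groups lay well apart, by 1.38 ± 0.12 (SE, limma, adjusted p = 1.78e-06). Of the 3 Ramp1 probe sets 2 were called higher and the other one lay at -0.02, so that the mean of the 3 differed by 0.63 (adjusted p = 2.57e-05). Its partner Calcrl did not pass the test, with a difference of -0.13 ± 0.15 (limma, adjusted p = 0.689).

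Grk5 encodes a kinase that phosphorylates activated receptors and so readies them for arrestin binding. It fell from 8.22 to 8.75 in controls to 7.09 to 7.71 in mutants, again without overlap, by 1.18 ± 0.09 on the log2 scale (SE, limma, adjusted p = 2.89e-07), and both of its probe sets were called lower. The related kinase gene Grk3 was lower by -0.26 ± 0.06 (adjusted p = 0.0076, but 0.0832 without pairs 1 to 3, 0.143 with its 3 probe sets averaged, 0.0864 under the block plus acinar mean, and 0.386 under the block plus 3′ minus 5′ signal). Arrb1, the gene of beta-arrestin 1, was higher by 0.39 ± 0.09 (adjusted p = 0.00878), from a signal below the array medians. Its call ended under the block plus acinar mean (0.37, adjusted p = 0.331) and under the block plus 3′ minus 5′ signal (0.15, adjusted p = 0.849). Gnas, the gene of the stimulatory G protein itself, differed by 0.08 ± 0.06 (limma, adjusted p = 0.482). Its 5 probe sets ran from 0.08 to 0.52 and none was called, and their mean differed by 0.30 (limma, adjusted p = 0.213). With the replicate block 3 receptor partners were lower and 2 higher (9.71% and 7.88% of all genes), and without pairs 1 to 3 the counts were 1 and 2 (2.46% and 2.09%).

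Of 24 measured genes of cyclic AMP synthesis, sensing and breakdown, 3 were called higher and 0 lower, where 4.10% and 4.66% of all genes were, with a median difference of -0.01. The count uses the brightest probe set of each gene. That of Prkar1b was not called (-0.16, limma, adjusted p = 0.26). Of its 5 probe sets 3 were called lower in the limma fit over all probe sets, where 6.08% of all were called in either direction. Adcy1, a calcium-stimulated adenylyl cyclase, went from 6.76 ± 0.20 (SD) to 7.65 ± 0.52, a difference of 0.89 ± 0.18 (SE, limma, adjusted p = 0.00458). Its other probe set gave 0.10 and the mean of both 0.49 (adjusted p = 0.00644), and the call ended under the block plus acinar mean (0.68, adjusted p = 0.204). Adcy6, a cyclase that calcium inhibits, was higher by 0.33 ± 0.08 (adjusted p = 0.013, but 0.0946 without pairs 1 to 3, 0.343 under the block plus acinar mean, and 0.508 under the block plus 3′ minus 5′ signal). Pde4d, a phosphodiesterase that breaks down cyclic AMP, was higher by 0.49 ± 0.10 (adjusted p = 0.00443), and its other probe set by 1.39, so that the mean of both differed by 0.94. Its call ended under the block plus acinar mean (0.52, adjusted p = 0.109) and under the block plus 3′ minus 5′ signal (0.20, adjusted p = 0.683). Adcy8 was dim and differed by 0.15 ± 0.09 (adjusted p = 0.368). With the replicate block the counts were 5 higher and 2 lower, in a fit that called 7.88% of all genes higher and 9.71% lower, and without pairs 1 to 3 they were 2 and 0, against 2.09% and 2.46% of all genes.

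Among 15 measured response factors and targets of cyclic AMP, 1 was called higher and 1 lower, against 4.10% and 4.66% of all genes, with a median difference of 0.08. Nr4a2, an orphan nuclear receptor gene induced by cyclic AMP in many cells, read 8.24 to 10.38 in controls (median 8.81) and 9.33 to 10.60 in mutants (median 10.02), a difference of 1.07 ± 0.29 (SE, limma, adjusted p = 0.0253). Its call ended without control replicate 6, 7 or 8 or mutant replicate 5 (adjusted p = 0.0549, 0.0518, 0.054 and 0.0504), under the block plus acinar mean (0.72, adjusted p = 0.123), and under the block plus 3′ minus 5′ signal (0.97, adjusted p = 0.198). Of its 6 probe sets 3 were called, and the mean of all 6 differed by 0.58. Pdx1, which maintains the beta-cell state, had a difference of -0.56 ± 0.07 (adjusted p = 2.9e-05). Irs2, an insulin-signalling gene raised by GLP-1 receptor agonists, differed by 0.65 ± 0.23 and did not pass (adjusted p = 0.0889), but passed with the replicate block (adjusted p = 0.0201), with array weights (0.71, adjusted p = 0.0497) and when mutant replicate 3 was left out (adjusted p = 0.0227). Under the block 3 of the 15 were higher and 1 lower, where 7.88% and 9.71% of all genes were.

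In the fit with the block and both the acinar and immune means, which called 8 genes in all, Ramp1, Grk5 and Pdx1 were not called (limma, adjusted p = 0.254, 0.0894 and 0.401). Nor was any other gene named in these 4 lists, apart from Prkar1b, which was not followed in this fit.

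The other class B receptors gave 0 called genes of 8 measured by limma with all arrays, where 8.76% of all genes were called. These receptors also gave 0 with the replicate block (17.6% of all genes) and without pairs 1 to 3 (2.46% lower and 2.09% higher). Their median difference was -0.09, and single differences ran from -0.13 for Calcrl to 0.10 for Calcr, the calcitonin receptor gene, which had the lowest p of the 8 (0.10 ± 0.05 SE, adjusted p = 0.224) at a signal well below the array medians. The unadjusted p of Calcr was 0.047 (limma), and no count of genes at an unadjusted threshold is read here.

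**Figure D4:**
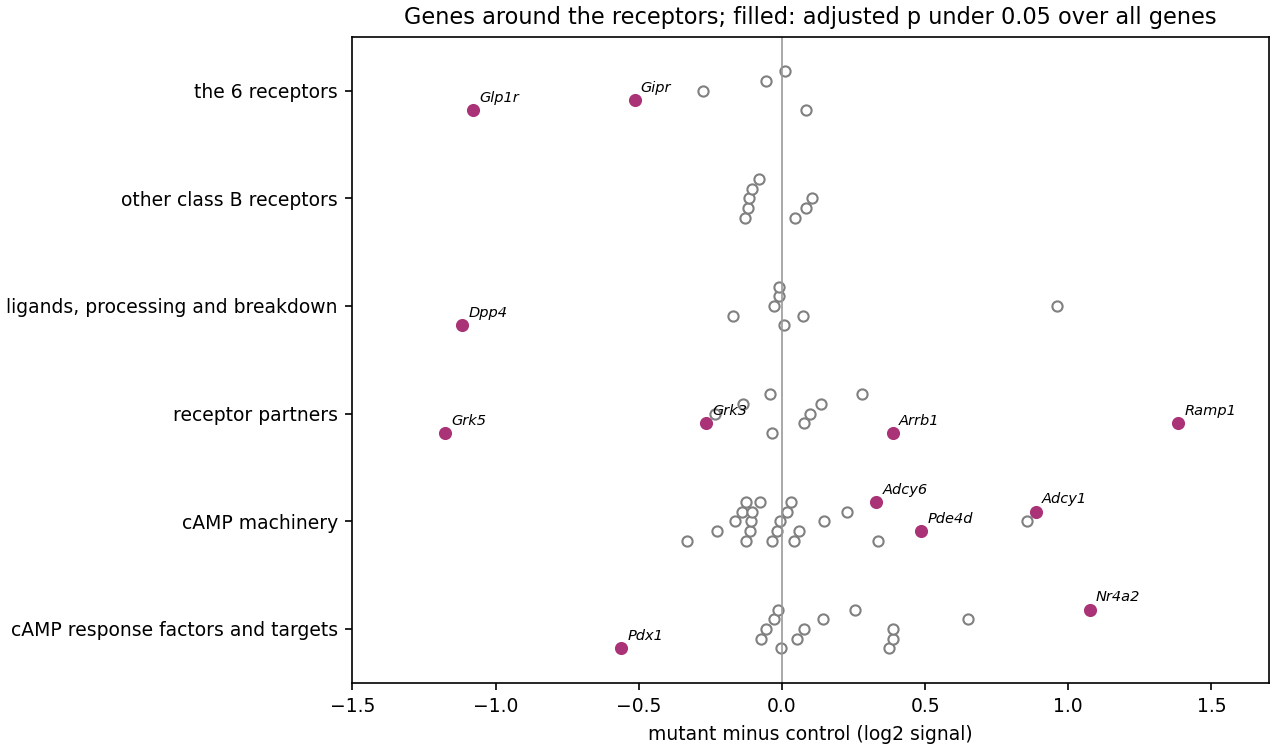
Difference, mutant minus control in log2 signal, of every measured gene in the receptor set and the 5 lists around it (points are spread vertically only to keep them apart), filled and named where the adjusted p was under 0.05 over all genes. Glp1r, Dpp4 and Grk5 lie lowest, between -1.08 and -1.18, Ramp1 lies highest at 1.38, and no other class B receptor is filled.

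The receptors' array-to-array pattern within the groups was compared with that of all genes whose mean lay above the lowest array median, as Pearson's r over the 16 arrays after each group's mean was subtracted. This is a description only, since same-numbered arrays share a pattern and the 3 closest genes were picked for each receptor from all those. Closest to Glp1r were H2aj (0.868), Dnpep (0.851) and Tpt1 (0.839), and closest to Gipr were Rpl6 (0.839), Rps2 (0.785) and Tradd (0.78). Gcgr was closest to Eml4 (0.872), Bnip2 (0.801) and Asap1 (0.771), and Adcyap1r1 to Rxrg (0.89), Abcb8 (0.881) and Ppib (0.877). Vipr1 was closest to Fam155a (0.922), Ppp1cb (0.908) and Tmed7 (0.902), and Vipr2 to Magea7-ps (0.918), Tmed6 (0.881) and C86187 (0.88). No gene was among the 3 closest to more than 1 receptor. Of these 18 genes Dnpep, Rpl6 and Asap1 were called between the groups, all higher in the mutant, where 4.10% of all genes were (0.42, 0.29 and 0.33, limma, adjusted p = 0.0175, 0.00064 and 0.0164).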

How the data were processed

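Per the labels' protocols, islet RNA was isolated with Trizol and biotin-labelled with a 3′ IVT Express kit. The deposited values are 1 log2 signal per probe set; the authors' background correction, summarisation and normalisation are not given in the sources used here, and the log base was taken from the values (highest 15.39, array medians 6.29 to 6.35). Of 45101 probe sets, 64 controls were left out, and 34945 named 1 gene, 932 several and 9160 none. Symbols were updated to RefSeq (GRCm38.p6) for 34741. Some list genes were not analysed here for want of an assigned probe set (Glp2r, Pcsk2, Grk2, Rapgef4 and Atf1 of the lists). No columns were identical (correlations 0.971 to 0.993).

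The test was limma 3.58.1 under R 4.3.3 (lmFit, eBayes with a variance trend, genotype only), two-sided, with Benjamini-Hochberg adjustment over all genes and a threshold of 0.05. The steps were tested on simulated data. Exact permutation tests used Python 3.11.15. The receptors, lists and alternatives were chosen with earlier results of these data known. The genes named are the receptors with all probe sets, up to 4 called genes of each list (or that with the lowest p), 7 measured genes named whatever their p, Insm1 and 3 genes most like each receptor. Calcrl and Prkar1b were added after their values were seen. Markers named for cell types are those of the fixed lists.

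Deviations from the group means correlated between same-numbered arrays in all 8 pairs (median 0.466, range 0.237 to 0.735). The median correlation of arrays with different numbers was -0.10, so the numbers were taken to pair the arrays in the fits with the replicate block. The main limma fit and the main exact test did not use this pairing. The labels do not state that same-numbered arrays were littermates. A change of sign between values that were both not called was not counted as a reversal.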

Additional observations from a re-analysis of the deposited data

Results flagged for a closer look

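The immune-cell marker mean of control replicate 1 was 8.90, far from the other 7 controls, of which the next was 8.01 (a gap of 0.61 of the group's range, against a critical value of 0.526 for 8 arrays). It was the 1 such array among 38 groups of receptor and marker values, and chance alone marks about 1 in 20 groups. No receptor probe set had an array that stood apart in this way.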

How the results depend on the processing

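The fall of Glp1r kept its direction and its call in 12 of 14 alternatives and without each of the 16 arrays in turn (-1.18 to -1.02, adjusted p up to 0.000431). Glp1r and Gipr each have 1 probe set. Averaging probe sets therefore reused their values, as did testing every probe set on its own for Glp1r, and could hardly change the call. Glp1r was not called with the replicate block plus the 3′ minus 5′ signal (-0.93, adjusted p = 0.0526) or plus the acinar and immune means (-0.78, adjusted p = 0.621), fits in which 238 and 8 genes in all were called. Gipr was also not called in these 2 fits (-0.52 and -0.77, adjusted p = 0.294 and 0.588), with the block plus the acinar mean (-0.49, adjusted p = 0.145) and without pairs 1 to 3 (-0.52), and was called with each single array left out (-0.57 to -0.43). Vipr1 was called with the replicate block (-0.28), the acinar mean (-0.45) and both together (-0.51, adjusted p = 0.0475). Leaving out single arrays did not change its call (-0.34 to -0.22). Gcgr, Adcyap1r1 and Vipr2 were not called in any alternative, and their signs changed in 0 of 13, 3 of 13 and 4 of 12 of them. Over all genes 1594 were called, against 3200 with the replicate block and 677 with the block plus acinar mean. The count was 828 without pairs 1 to 3. Unblocked fits called 2009 genes with the acinar mean as a term and 1635 with the immune mean. All these alternatives have fewer residual degrees of freedom than the main fit, and their counts went both ways. Under the block the SEs of Glp1r and Gipr were 0.0862 and 0.0832. They were 0.171 and 0.166 once the acinar mean was added, and 0.29 and 0.274 once the immune mean was added too. The causes of these changes in counts and SEs were not tested. Beside the changes given, the block changed the call of no receptor. The number of receptor pairs whose changes differed stayed at 8 of 15 with quantile normalisation, median centring and pairing by replicate number. Signal near or below the array medians limits Gipr and Vipr2 most.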
